A study of Homo sapiens with 6 samples.

Results

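Cassette (CA) exon inclusion was examined in 10 genes at the centre of the Wnt and β-catenin pathway: the co-receptors LRP5 and LRP6, the β-catenin destruction complex genes AXIN1, APC, GSK3A and GSK3B, CTNNB1 (β-catenin), the DNA-binding factor TCF7L2 and the transcriptional co-repressors CTBP1 and CTBP2. Members were named by gene symbol, with earlier results of these data known. Every row of the splicing table that carried one of these symbols was taken. The members had 25 events in 9 of the 10 genes, out of 24725 events in 7969 genes. GSK3A had no row and was not analysed here.

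RNA-seq compared 3 control samples with 3 RBM47 samples of MDA231-BrM2a, a brain-metastatic derivative of the human breast cancer cell line MDA-MB-231. Control cells carried the empty pRetroX-Tight-Pur vector and were not clonal, whereas RBM47 cells carried a Flag-tagged RBM47 transgene and were a single clone. RBM47 is an RNA-binding protein. Cells of both groups received 10 ng/ml doxycycline for 3 days, so exposure to the drug was shared. Expression of RBM47 and the origin from 1 clone cannot be told apart in this design. No event of RBM47 itself was in the table, so the level of the transgene was not analysed here.

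In the canonical Wnt pathway, a secreted Wnt ligand binds a Frizzled receptor together with LRP5 or LRP6. Without ligand, the scaffold proteins AXIN1 and APC hold β-catenin for phosphorylation by GSK3 kinases, which marks it for degradation. With ligand, β-catenin builds up, enters the nucleus and joins TCF/LEF factors at target genes. Several of these genes are alternatively spliced, and the TCF/LEF genes are well known for it.

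A row described 1 CA exon, which a transcript keeps or leaves out. The inclusion rate (IR) of each sample was a deposited value, where 0 means always skipped and 1 always included. Rates from totals were computed as the exon's own junction reads divided by the sum of those reads and 2 times the skipping-junction reads. Sample rates did not always follow from these reads. In CTBP2 event 3, IR was 0 in all 3 RBM47 samples although their total held 2 including reads. In CTBP1 event 2, the rates from totals (0.976 and 0.981) exceeded every sample of their group. Reads were given only as totals over the 3 samples of a group, 26498401 in control and 24116982 in RBM47 cells over all events. The depth of each sample is therefore unknown. Among the 6000 events with a mean IR of 0.1 to 0.9, RBM47 replicate 2 stood apart from the rest. Of its rates 14.8% were exactly 0 or 1, while the share was 6.10% to 7.63% for each of the other 5. All 25 member rows were aligned as deposited, meaning that the 3 rates of each group averaged to the group average printed in the row.

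The largest differences among the members were those of TCF7L2 event 3, AXIN1 event 1 and CTBP2 event 5. The first 2 exons could be placed in the genome and are shown here, so that the values can be read against the sequence, together with TCF7L2 event 4, an intermediate exon of the same gene. For CTBP2 event 5 no exon was matched. Positions are GRCh37, from a match of the event's gene and outer span to 3 consecutive exons of an annotated transcript. Exon bases are in capitals and the 15 intron bases on each side in lower case, 5′ to 3′ on the gene's strand. The TCF7L2 exon at chr10:114724315-114724383 (plus strand, event 3) has 69 bases, and its 23 codons are in frame with no stop. The TCF7L2 exon at chr10:114849159-114849299 (plus strand, event 4) has 141 bases and adds 47 codons. The AXIN1 exon at chr16:341190-341297 (minus strand, event 1) has 108 bases and adds 36 codons with no in-frame stop. Skipping any of these exons leaves the downstream reading frame as it was, because each length is a multiple of 3.
TCF7L2 event 3: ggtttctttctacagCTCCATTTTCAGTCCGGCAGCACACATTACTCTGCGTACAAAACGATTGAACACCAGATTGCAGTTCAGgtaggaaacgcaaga
TCF7L2 event 4: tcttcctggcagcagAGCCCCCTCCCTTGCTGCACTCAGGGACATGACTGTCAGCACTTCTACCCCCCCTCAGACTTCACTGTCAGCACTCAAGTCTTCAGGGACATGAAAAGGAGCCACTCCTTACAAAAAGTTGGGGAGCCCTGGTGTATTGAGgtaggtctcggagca
AXIN1 event 1: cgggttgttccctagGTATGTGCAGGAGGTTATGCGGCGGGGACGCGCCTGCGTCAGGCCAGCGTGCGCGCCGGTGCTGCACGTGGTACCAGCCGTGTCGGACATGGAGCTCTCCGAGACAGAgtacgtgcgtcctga

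The comparison asked whether inclusion of these exons differed between RBM47 and control cells. No member exon met the study criteria, which were a Fisher's exact p of at most 0.05 from the pooled read totals, a difference in mean IR of at least 0.2 and at least 10 reads. Over all genes, 348 of 24708 events with sample rates met them (1.41%), 152 in which inclusion was higher in RBM47 cells (0.615%) and 196 in which it was lower (0.793%). These counts come from Fisher p-values recomputed here and from re-matched rates, and both are larger than the exon counts that the paper gives. At 1.41% a set of 25 events holds less than 1 on average, so a count of 0 is near that background. The background includes re-matched rows, whereas all member rows were aligned as deposited. Its share among aligned rows alone was not computed, here or for the other shares of all events below. Mean IR was higher in RBM47 cells in 8 member events, lower in 9 and equal in 8. The median absolute difference was 0.00483, against 0.0114 over all events, and the largest was 0.189, in TCF7L2 event 3.

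**Figure D1:**
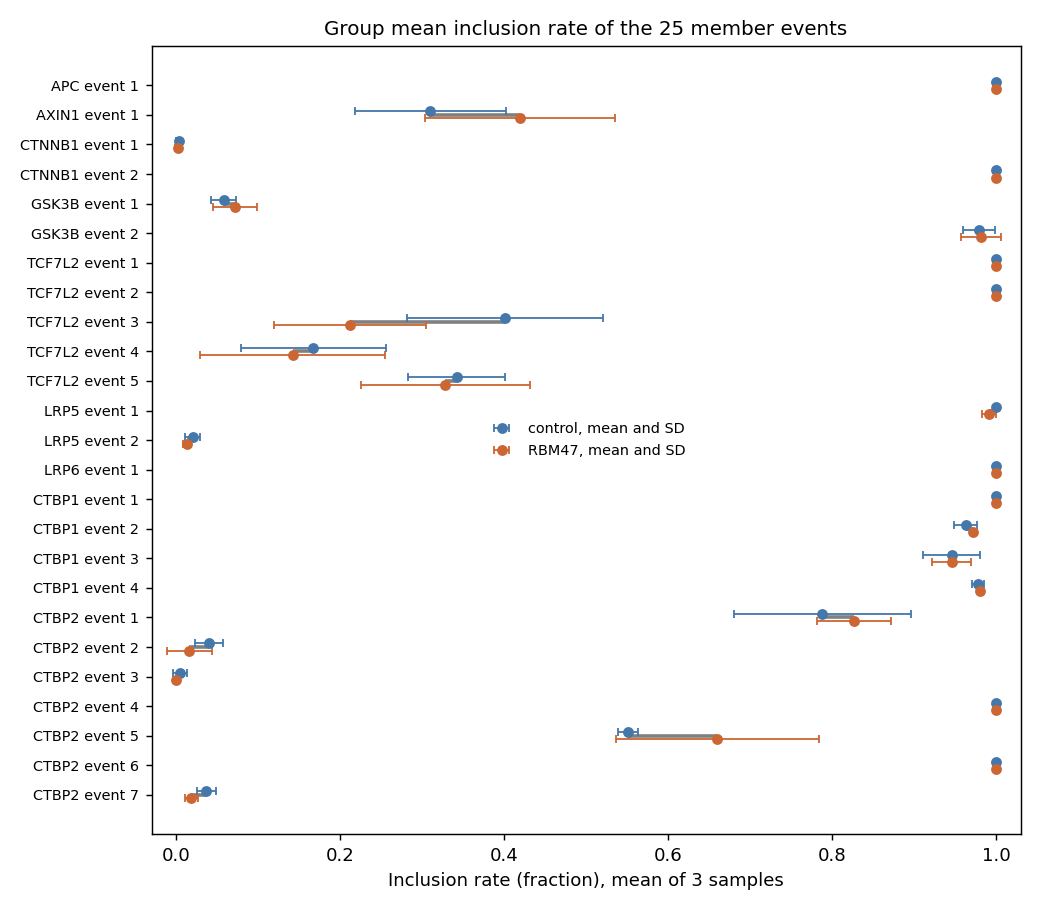
Mean inclusion rate of each of the 25 member events in control (blue) and RBM47 (orange) cells, with bars of 1 SD over 3 samples and a grey line joining the means. Most events lie near 0 or 1 in both groups, and the longest grey lines are those of TCF7L2 event 3, AXIN1 event 1 and CTBP2 event 5.

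Fisher's exact test alone gave a p of at most 0.05 in 2 of the 25 events, AXIN1 event 1 and LRP5 event 2, where 14.5% of all events did. That test uses pooled reads and takes no account of differences between samples. The replicate-level test (limma) took the 6 member events with a mean IR of 0.1 to 0.9 and called 0 of them, and 0 had an unadjusted limma p under 0.05. Over the 6000 events of that range, a limma adjusted p under 0.05 together with a mean difference reaching 0.2 called 92 (1.53%), and 721 had an unadjusted p under 0.05. In 0 of the 25 member events were the rates of the groups separated without overlap, against 9.93% of all events. The median absolute difference of the 6 was 0.0740, against 0.0597 over the 6000.

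An IR of exactly 1 in every sample was more common among the members than in the table at large, and a mean between 0.9 and that was less common. In 8 of the 25 member events (32.0%) IR was exactly 1 in all 6 samples, against 12.4% of all events. A further 5 (20.0%) had a mean above 0.9, 6 (24.0%) a mean of 0.1 to 0.9 and 6 (24.0%) a mean under 0.1, against 43.3%, 24.3% and 20.0% of all events. Member events were covered by a median of 438 reads over both groups (69 to 8269), and all events by a median of 665. An IR of exactly 1 is easier to reach with few reads, and the shares were not compared at equal depth.

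Among the co-receptors, LRP6, which passes the Wnt signal across the membrane with Frizzled, had 1 event, a 394-base exon at chr12:12397196-12397589. Its IR was 1 in all 6 samples, with 272 including and 0 skipping reads for control against 107 and 0 for RBM47 cells. A count of 0 allows up to 3 skipping reads. With their weight of 2 in rates from totals, that is a skipping share of up to 2.16% and 5.31%, counting error only.

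LRP5, the close relative of LRP6, had 2 events. In event 1, a 172-base exon at chr11:68157349-68157520, every control sample had IR of 1, and RBM47 replicates 1, 2 and 3 had 0.991, 1 and 0.983. The 3 skipping reads came from RBM47 cells, against 771 including reads there and 798 in control (Fisher's exact p = 0.119). In event 2 (table coordinates chr11:67963820-67970576, build not stated), the exon was almost always skipped, at 0.0267, 0.00971 and 0.0233 in control, against 0.00926, 0.0112 and 0.0182 in RBM47 cells. The means of 0.0199 ± 0.00900 and 0.0129 ± 0.00469 (SD, n = 3) differed by -0.00701, and the ranges overlapped (two-sided exact permutation p = 0.3, where 3 samples against 3 cannot give less than 0.1). Fisher's exact p was 0.0390, from 49 including and 226 skipping reads for control against 30 and 232 for RBM47 cells, and 0.297 after Benjamini-Hochberg adjustment over all events. The totals gave rates of 0.0978 and 0.0607, above every sample rate of their group. The totals and the sample rates therefore do not match here, and the reason was not tested.

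Of the destruction complex genes, AXIN1, the scaffold of the complex, had 1 event, the 108-base exon printed above. IR was 0.316, 0.216 and 0.400 in control, against 0.538, 0.306 and 0.412 in RBM47 cells. RBM47 replicate 1 was the highest of the 6, and the other 2 RBM47 samples lay within or just above the control range. The mean was 0.310 ± 0.0923 for control and 0.419 ± 0.116 for RBM47 cells (SD, n = 3 each), a difference of 0.108 with a 95% confidence interval of -0.0538 to 0.270. The replicate-level test was not passed (limma adjusted p = 0.647, exact permutation p = 0.3). The pooled reads were 107 including and 102 skipping for control against 147 and 82 for RBM47 cells, for which Fisher's exact p was 0.00668 and 0.0960 after adjustment over all events. Without RBM47 replicate 1 the difference was 0.0485, and without control replicate 2 it was 0.0609.

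APC, a tumour suppressor and scaffold that binds β-catenin in the complex, had 1 event, a 153-base exon at chr5:112090570-112090722. IR was 1 in all 6 samples, with 74 including and 0 skipping reads for control against 40 and 0 for RBM47 cells. At that depth the 0 skipping reads allow a skipping share of up to 7.50% in control and 13.0% in RBM47 cells.

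GSK3B, a kinase that phosphorylates β-catenin, had 2 events. In event 1 (table coordinates chr3:121064955-121078044, build not stated) IR was 0.0744, 0.0462 and 0.0526 in control, against 0.0430, 0.0959 and 0.0761 in RBM47 cells. The exon was skipped in most reads of both groups, and the 2 groups overlapped. Means were 0.0577 ± 0.0148 and 0.0717 ± 0.0267 (SD, n = 3), a difference of 0.0139 (exact permutation p = 0.6, Fisher's exact p = 0.421). The span matched 2 exons of the annotation, of 39 and 106 bases, and which of them was counted was not settled. In event 2 the exon was included at means of 0.979 ± 0.0195 in control and 0.982 ± 0.0240 in RBM47 cells, with 5 skipping reads in each group.

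CTNNB1 encodes β-catenin, which carries the signal to the nucleus. Event 1 (table coordinates chr3:41240515-41241247, build not stated) was nearly always skipped, at 0, 0.00216 and 0.00683 in control, against 0, 0 and 0.00656 in RBM47 cells. The pooled reads were 9 including and 1164 skipping for control against 3 and 607 for RBM47 cells (Fisher's exact p = 0.761, exact permutation p = 0.7). Event 2 was the most deeply covered of all members, with IR of 1 in every sample and 4769 and 3500 including reads. The 0 skipping reads there allow a skipping share of up to 0.126% in control and 0.171% in RBM47 cells.

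TCF7L2, which binds DNA at Wnt target genes and recruits β-catenin, had 5 events, and 3 of them were intermediate. In event 3, the 69-base exon printed above, IR was 0.265, 0.455 and 0.484 in control, against 0.310, 0.20 and 0.125 in RBM47 cells. Control replicates 2 and 3 were above every RBM47 sample, but control replicate 1 lay below RBM47 replicate 1. Mean IR was 0.401 ± 0.119 for control and 0.212 ± 0.0932 for RBM47 cells (SD, n = 3 each), a difference of -0.189 with a 95% confidence interval of -0.445 to 0.0658. This was the largest difference of any member and just short of the 0.2 that the study criteria ask for. It was larger than either SD, but the groups overlapped and the tests were not passed (limma adjusted p = 0.632, exact permutation p = 0.2).

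The reads behind TCF7L2 event 3 were few, 38 including and 32 skipping for control against 17 and 19 for RBM47 cells (Fisher's exact p = 0.542). Rates computed from those totals were 0.373 and 0.309, a difference of -0.0635, smaller than that of the sample means. Leaving out 1 sample at a time gave differences of -0.257 to -0.146, all of the same sign.

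TCF7L2 event 4, the 141-base exon printed above, had IR of 0.176, 0.0741 and 0.250 in control, against 0.0833, 0.273 and 0.0714 in RBM47 cells. The groups overlapped over most of their range. Means were 0.167 ± 0.0884 and 0.142 ± 0.113 (SD, n = 3), a difference of -0.0244 with a 95% confidence interval of -0.259 to 0.210 (limma adjusted p = 0.951). It rested on 29 including and 64 skipping reads for control against 9 and 28 for RBM47 cells.

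In TCF7L2 event 5 (table coordinates chr10:114907769-114915346, build not stated), IR was 0.278, 0.394 and 0.355 in control, against 0.429, 0.333 and 0.222 in RBM47 cells. The RBM47 samples spanned the control range. Mean IR was 0.342 ± 0.0591 and 0.328 ± 0.103 (SD, n = 3), a difference of -0.0141 with a 95% confidence interval of -0.254 to 0.226 (limma adjusted p = 0.982). For events 4 and 5 the interval holds a rise of 0.2, so a rise of that size was not excluded. For event 5 a fall of 0.2 was not excluded either. In event 4 the control mean of 0.167 leaves no room for such a fall, and the interval was computed on untransformed rates.

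The remaining TCF7L2 events 1 and 2 had IR of 1 in every sample. Their exons, of 125 bases at chr10:114711242-114711366 and 102 bases at chr10:114799784-114799885, had 77 and 98 including reads for control against 38 and 51 for RBM47 cells. The 0 skipping reads allow a skipping share of up to 7.23% and 5.77% in control and 13.6% and 10.5% in RBM47 cells.

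CTBP1 and CTBP2 encode C-terminal binding proteins, co-repressors that can act with TCF factors in the nucleus. CTBP1 had 4 events, all included at a mean IR above 0.9. In event 2, its largest difference, IR was 0.975, 0.947 and 0.967 in control, against 0.971, 0.976 and 0.969 in RBM47 cells. Means were 0.963 ± 0.0144 and 0.972 ± 0.00365 (SD, n = 3), a difference of 0.00930 (exact permutation p = 0.4). Event 1 had IR of 1 in every sample over 1370 and 1059 including reads, and event 4, a 207-base exon of 69 codons at chr4:1219148-1219354, had means of 0.978 ± 0.00693 and 0.981 ± 0.00282.

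CTBP2 had 7 events, the most of any member. In event 5 (table coordinates chr10:126717555-126839130, build not stated), IR was 0.537, 0.556 and 0.560 in control, against 0.520, 0.758 and 0.701 in RBM47 cells. The control samples lay within a narrow range, RBM47 replicates 2 and 3 above it and RBM47 replicate 1 below it. Mean IR was 0.551 ± 0.0121 for control and 0.660 ± 0.124 for RBM47 cells (SD, n = 3 each), a difference of 0.108 with a 95% confidence interval of -0.0328 to 0.250. It was smaller than the SD of the RBM47 samples (limma adjusted p = 0.591, exact permutation p = 0.4), and Fisher's exact p was 0.116, from 232 including and 88 skipping reads for control against 155 and 41 for RBM47 cells.

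CTBP2 event 1, a 202-base exon annotated as non-coding at chr10:126848888-126849089, had IR of 0.820, 0.876 and 0.667 in control, against 0.806, 0.879 and 0.797 in RBM47 cells. Control replicate 3 was the lowest of the 6 samples. The means of 0.788 ± 0.108 and 0.827 ± 0.0448 (SD, n = 3) differed by 0.0396, with a 95% confidence interval of -0.103 to 0.182 (limma adjusted p = 0.879). Without control replicate 3 the difference was -0.0209.

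The other 5 CTBP2 events were near the ends of the scale. Events 4 and 6 had IR of 1 in every sample. Events 2, 3 and 7 had means under 0.1 in both groups, and in each of them the RBM47 mean was the lower. The largest of these differences was -0.0235, in event 2. In events 2 and 3 the rates from the read totals went the other way, by 0.0285 and 0.0182, on 1 to 3 including reads per group. Events 3 and 5 had the same outer ends and the same skipping totals of 88 and 41 reads, so they were not independent.

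**Figure D2:**
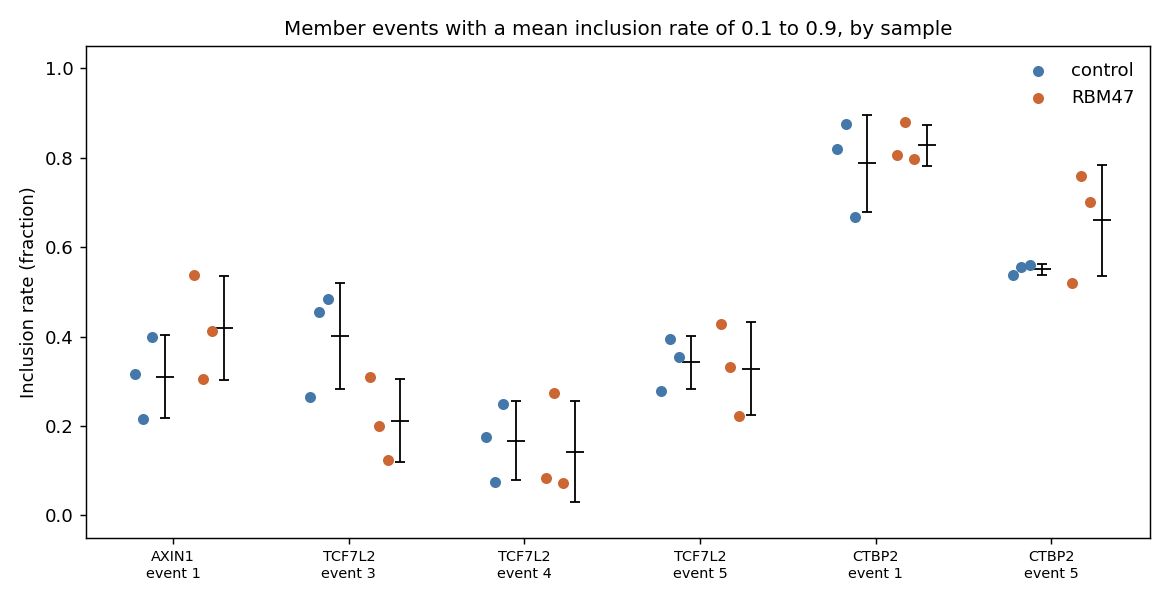
Inclusion rate in each of the 3 control (blue) and 3 RBM47 (orange) samples for the 6 member events with a mean rate of 0.1 to 0.9, with the group mean and bars of 1 SD. The groups overlap in all 6 events. The TCF7L2 event 3 and AXIN1 event 1 means lie 0.189 apart and 0.108 apart, in opposite directions.

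The read totals also gave a measure of how many junction reads each gene had in RBM47 relative to control cells. They have no replicates, so these ratios are a description of the pooled samples, and no test was made. In such bulk samples fewer cells that use a gene and less of its RNA per cell cannot be told apart. Over the 22982 events that had 30 reads or more in both groups, the median ratio was 0.866, with quartiles of 0.664 and 1.07. Without that read minimum, the median ratio was 0.647 over the 25 member events and 0.856 over all events with sample rates.

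The lowest ratio among the members was that of LRP6, with 107 reads against 272, a ratio of 0.393. Of the 22982 events with 30 reads or more in both groups, 4.13% were lower. TCF7L2 was low in all 5 events, at 0.398 to 0.549, and APC stood at 0.541. CTBP2 ranged from 0.483 to 0.697, CTNNB1 from 0.520 to 0.734 and CTBP1 from 0.639 to 0.773. In these 6 genes every ratio was under the median of 0.866 of those events. LRP5 stood at 0.953 and 0.970, AXIN1 at 1.10 and GSK3B at 1.07 and 1.11, above that median. Events of 1 gene share transcripts and are not independent measures of its level.

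**Figure D3:**
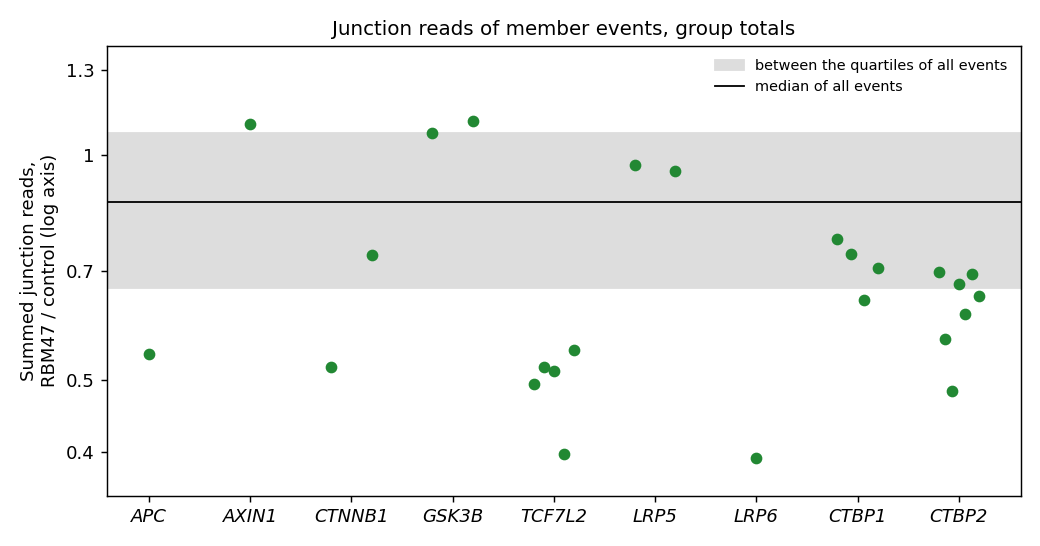
Ratio of summed junction reads in RBM47 to control cells (log axis), 1 point per member event. The line is the median, and the grey band the range between the quartiles, of all events with 30 reads or more in both groups. All points of APC, CTNNB1, TCF7L2, LRP6, CTBP1 and CTBP2 lie under the median of 0.866, and those of AXIN1, GSK3B and LRP5 above it.

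To set the members within their pathway, the same test was read for a wider list of 140 Wnt genes that holds none of them. The list was chosen with earlier results of these data known, so its counts are a description and no list test was made. It had 190 events in 52 genes. Study criteria were met by 7 events that were higher in RBM47 cells and 1 that was lower, where 0.615% and 0.793% of all events met them. The replicate-level test called 4 of its 46 tested events, all higher (background 1.53%). In 26 of the 190 events the sample rates of the groups did not overlap (background 9.93%).

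By role, 2 of the 8 events lay among ligands and their secretion (7 events), 1 among cytoplasmic transducers and the destruction complex (72), 3 among nuclear factors (49), 1 in cadherin-catenin adhesion (26) and 1 among target genes (22). The receptors (4 events) and the planar polarity branch (10) had 0. The 15 secreted antagonists and agonists, DKK1 among them, had no event in the table.

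All 8 of these events lay in rows where the printed rates did not belong to the row, unlike those of the 25 member events. Their rates were taken from the 1 row whose RBM47 rates gave the printed RBM47 average. The control rates of that row did not give the printed control average. The read totals, which did not enter that match, gave the same direction in all 8. Each count rests on that match, and so do the control rates, SDs and limma p-values given below for these 8 events. With only rows aligned as deposited, the counts under the study criteria are 0. Rates from the control totals lay within the range of the matched control rates for CD44, LEF1, CTNND1 and MAP3K7. They lay above that range for MACF1 (0.307), TLE1 (0.209) and PORCN events 3 and 4 (0.392 and 0.483).

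Among the genes of the wider list that had an event, LEF1 was the only other TCF/LEF factor. An 84-base exon of LEF1 at chr4:109002742-109002825 had IR of 0.30, 0.394 and 0.419 in control, against 0.179, 0.0667 and 0.0811 in RBM47 cells. The 2 groups did not overlap, with means of 0.371 ± 0.0629 and 0.109 ± 0.0614 (SD, n = 3) and a difference of -0.262. Fisher's exact p was 0.000119, from 42 including and 33 skipping reads for control against 11 and 40 for RBM47 cells, but the limma adjusted p was 0.361.

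In MACF1, a cytoskeletal linker that can bind the AXIN1 complex, an 18-base exon at chr1:39930767-39930784 had IR of 0.286, 0.295 and 0.298 in control, against 0.548, 0.549 and 0.538 in RBM47 cells. On the matched rates, inclusion rose from 0.293 ± 0.00629 to 0.545 ± 0.00613 (SD, n = 3), a difference of 0.251 (limma adjusted p = 0.000708). Rates from the read totals were 0.307 in control and 0.549 in RBM47 cells, and the control value lay outside the matched control rates.

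An 87-base exon of CTNND1 (p120 catenin, which binds cadherins), at chr11:57583387-57583473, had IR of 0.0191, 0.0141 and 0.0340 in control, against 0.289, 0.232 and 0.226 in RBM47 cells. On the matched rates, inclusion rose from 0.0224 ± 0.0104 to 0.249 ± 0.0348 (SD, n = 3), a difference of 0.227 (limma adjusted p = 0.00145). Rates from the read totals were 0.0246 in control and 0.26 in RBM47 cells.

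CD44, a cell surface receptor for hyaluronan listed as a Wnt target gene, had IR of 0.355, 0.284 and 0.387 in control, against 0.731, 0.820 and 0.652 in RBM47 cells (table coordinates chr11:35167957-35189571, build not stated). The rise of 0.392 had a limma adjusted p of 0.00788, which was 0.0600 without control replicate 2 and 0.0567 without RBM47 replicate 1. An 81-base exon of MAP3K7, a kinase upstream of NLK, at chr6:91254271-91254351, had IR of 0.108, 0.0300 and 0.0629 in control, against 0.282, 0.277 and 0.266 in RBM47 cells. Its rise of 0.208 had a limma adjusted p of 0.0477, which was 0.112 with the replicate number as a block and 0.0737 to 0.185 with any 1 sample left out.

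In the last 3 events, the study criteria were met and the replicate-level test was not passed. TLE1, a Groucho co-repressor, had IR of 0.0811, 0.0588 and 0.154 in control, against 0.400, 0.0769 and 0.50 in RBM47 cells (limma adjusted p = 0.576), and RBM47 replicate 2 fell among the controls. The 2 events of PORCN, the enzyme that adds the lipid to Wnt ligands, had the same outer ends and skipping totals, so they were not independent. Event 4 had IR of 0.333, 0.222 and 0.10 in control, against 0.214, 1 and 0.467 in RBM47 cells (limma adjusted p = 0.503). Without RBM47 replicate 2 the PORCN differences of 0.342 and 0.336 were 0.122 and 0.113.

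**Figure D4:**
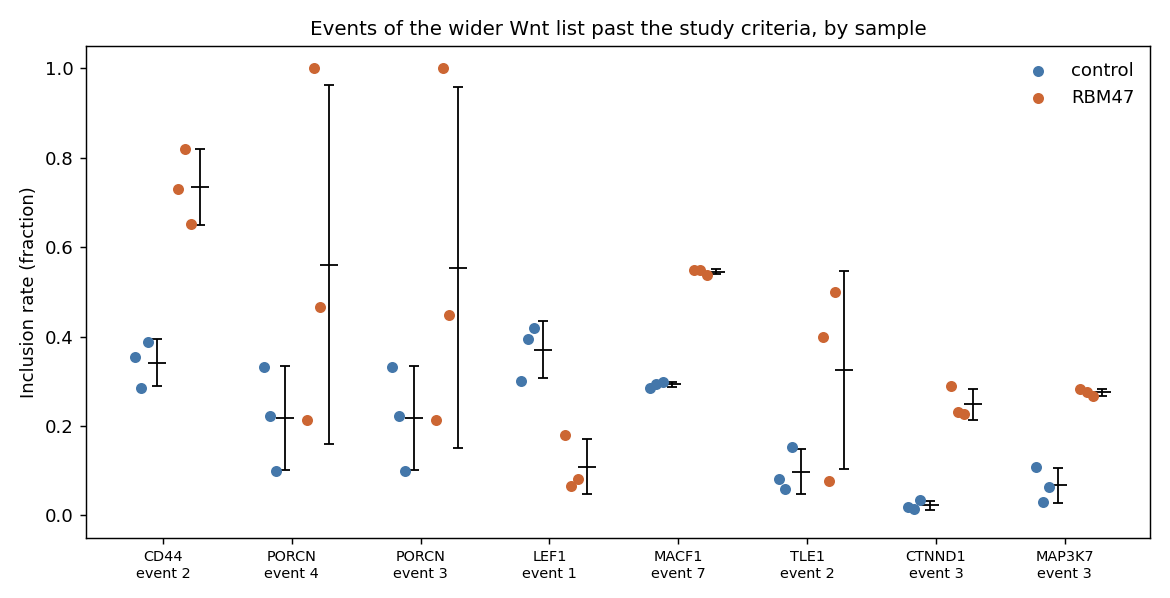
Inclusion rate in each control (blue) and RBM47 (orange) sample for the 8 events of the wider Wnt list past the study criteria, with the group mean and bars of 1 SD. Rates are those matched by the RBM47 average alone. The groups are apart in CD44, LEF1, MACF1, CTNND1 and MAP3K7, and overlap in TLE1 and both PORCN events, where RBM47 replicate 2 was at 1.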

How the data were processed

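MDA231-BrM2a RNA was sequenced after poly(A) selection (3 control and 3 RBM47 samples, grouped and numbered by their labels). The authors mapped reads to cassette exon junctions and deposited inclusion rates per sample as fractions. They also deposited read counts summed over each group, for the including and the skipping isoform. The labels' processing notes name TopHat and the study's methods name STAR with hg19, and neither says which build the table's coordinates use. Columns with the authors' difference, odds ratio and p-value were not used. Columns of samples outside the series numbered 0.

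In 1392 of 24725 rows (5.63%), the rates did not average to the printed averages (tolerance 3e-09). Rates were re-matched by both averages in 1122 rows and by the RBM47 average alone in 253, and 17 rows were left without rates.

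Fisher's exact test (two-sided) was run on the group totals with scipy 1.17.1, and Benjamini-Hochberg adjustment with statsmodels 0.14.6. The replicate-level test used limma 3.58.1 (R 4.3.3) on arcsine square root rates, in which the variance followed a trend on the log2 read total. It took events with a mean rate of 0.1 to 0.9. It was tested on simulated data. Confidence intervals came from limma on untransformed rates. No statement in the labels says that samples of a group were separate cultures. The limma and permutation p-values therefore measure differences against the spread between these samples, which may be technical. Fisher p-values come from pooled totals and take no account of that spread. Depth per sample is unknown, and intervals for single samples were not computed.

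Exons were matched to the GENCODE annotation of GRCh37 by gene and outer span. Named were all member events with a Fisher p of at most 0.05, those past the study criteria or with a mean rate of 0.1 to 0.9, for other genes the event with the largest difference, and events of the wider list past the study criteria. The members, lists and tests were chosen with earlier results of these data known. Alternatives were another adjustment, difference limit, read minimum and row set, rates from totals, a replicate block and leaving out each sample.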

Additional observations from a re-analysis of the deposited data

How the results depend on the processing

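The member counts of 0 higher and 0 lower under the study criteria changed in 1 direction under 1 alternative: with a required difference of 0.1, 1 event was higher (AXIN1). The wider list's 7 higher events became 4 with adjusted Fisher p-values, 9 with a difference of 0.1, 0 with only rows aligned as deposited, and 5 to 7 with 1 sample left out (5 without RBM47 replicate 2). Its 1 lower event became 5 with a difference of 0.1, 0 with only aligned rows, and 1 to 2 with 1 sample left out (2 without control replicate 3, RBM47 replicate 1 or RBM47 replicate 3). Leaving out a sample changed the difference only, since Fisher's test used pooled totals.

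With the replicate block, limma called 0 member events higher and 0 lower, as without it. Samples with the same number did not deviate together (r across events of -0.0198, -0.00294 and 0.0152). The numbers were treated as names of samples, and these correlations cannot show whether samples were handled in pairs.

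Of 90 alternative values for the named member events, 9 changed sign, all with 1 sample left out, and 0 crossed the limma threshold. CTNNB1 event 1, at -0.000807, changed sign in 3 of them, by less than the spread between replicates. TCF7L2 event 4 ranged from -0.0895 to 0.0172, TCF7L2 event 5 from -0.0644 to 0.0388 and CTBP2 event 1 from -0.0209 to 0.0839. LRP5 event 2 moved to -0.0371 with rates from totals. With the rates as printed in their rows, the differences of the wider list were -0.204 for CD44, -0.254 and -0.365 for PORCN, 0.211 for LEF1, -0.254 for TLE1, -0.0238 for CTNND1 and -0.376 for MAP3K7, these 7 against the read totals, and 0.00644 for MACF1, in their direction. Depth was low for some members, with 106 reads in all for TCF7L2 event 3 and 69 for CTBP2 event 2.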
